A study of Mus musculus with 13 samples.

Results

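This is a description of 36 genes of fatty acid oxidation and ketone body formation, together with their regulator PPAR alpha, in damaged hepatocytes (dHeps). The genes were given as a list of symbols, and all 36 were found among the 27141 genes of the deposited tables and passed the filter on low counts, which left 19884 genes for testing. The cells were primary hepatocytes isolated by collagenase perfusion from wild-type mice of C57BL/6 background whose livers had been injured with carbon tetrachloride (CCl4), and they were kept for 16 days in a serum-free hepatocyte medium. RNA-seq was performed in 7 groups to ask what a cocktail of 5 compounds (5C) changes relative to its solvent, and which changes are lost when 1 compound is left out. The groups were the solvent dimethyl sulfoxide (DMSO), 5C, 5C-G without the ROCK inhibitor GSK429286A, 5C-C without the protein kinase D inhibitor CID755673, 5C-E without the AMPK activator ETC-1002, 5C-F without forskolin, which activates adenylate cyclase and so raises cAMP, and 5C-S without Salidroside, a plant glycoside. All groups therefore share the CCl4 injury and the culture, and none is an uninjured or freshly isolated liver. Each group had 2 libraries, called A and B in the order of the table, except 5C-S with 1 library. The study's methods describe its n as distinct biological replicates. Neither they nor the labels say whether the libraries of a group came from different mice or from different cultures. A p-value therefore measures only the spread between these libraries, which the main test estimated for each gene over all groups together. The methods also call the RNA-seq pooled, without saying what was pooled, and a library may therefore hold RNA of more than 1 mouse.

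PPAR alpha is a nuclear receptor that binds fatty acids and, paired with a retinoid X receptor, occupies direct repeats of AGGTCA spaced by a single base (DR1 elements). In the fasted liver it raises the genes that carry fatty acids into mitochondria and peroxisomes, shorten them by beta oxidation and turn the resulting acetyl-CoA into ketone bodies, the fuel that the liver exports when glucose is scarce. Mitochondria degrade most dietary fatty acids to the end, whereas peroxisomes shorten very long and branched chains. A further group of targets binds, stores or signals fat rather than burning it, among them the fatty acid carrier Fabp1, the hormone Fgf21 and the lipase inhibitor Angptl4.

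Total counts ran from 30195867 to 45491932 per library, and the 36 genes took between 0.259% and 0.396% of them. Of 16 hepatocyte markers none was at 0 in any group. Their summed level in FPKM, which is counts scaled to gene length and to library total, was 12114 to 13353 in DMSO, 12737 to 13084 in 5C, 7423 to 8849 in 5C-G, 6341 to 7081 in 5C-C, 4310 to 4900 in 5C-E, 19556 to 24150 in 5C-F and 8901 in 5C-S. Markers of other liver cells were present too. The summed level of 14 macrophage markers was 5377 to 5445 in DMSO and 632 to 717 in 5C, that of stellate cell and fibroblast markers 929 to 2380 over all libraries, that of cholangiocyte markers 1462 to 3436, and that of liver endothelial markers 4.70 to 25.8. Isoforms of brown fat and muscle, which burn fat with other genes, summed to 0.189 to 1.10. In bulk RNA, fewer cells of a type and less RNA per cell cannot be told apart.

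Sequences are shown for 3 genes that rose with the cocktail and on which the later results turn, as the stretch where a receptor that acts close to the start site would bind. Each is the 250 bases before the transcription start site in RefSeq, build GRCm38.p6, 5′ to 3′ on the gene's own strand. Capitals mark AGGTCA (a single copy of the repeat unit, which is not by itself a PPAR element), the DR1 repeat AGGNCANAGGNCA and TGACG (the core of a cAMP response element), each sought on both strands, and where these overlap they form a single run of capitals.
Fabp1, chr6:71199629-71199878, plus strand: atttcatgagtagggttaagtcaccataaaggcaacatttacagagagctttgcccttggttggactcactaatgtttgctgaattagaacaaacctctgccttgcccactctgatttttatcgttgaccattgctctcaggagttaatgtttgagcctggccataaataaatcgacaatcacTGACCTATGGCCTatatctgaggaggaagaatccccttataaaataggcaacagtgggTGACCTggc
Ehhadh, chr16:21787835-21788084, minus strand: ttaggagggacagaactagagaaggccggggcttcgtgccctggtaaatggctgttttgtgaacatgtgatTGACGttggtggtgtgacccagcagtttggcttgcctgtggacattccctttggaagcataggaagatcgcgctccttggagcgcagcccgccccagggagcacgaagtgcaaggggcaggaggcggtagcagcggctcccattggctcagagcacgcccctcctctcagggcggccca
Acaa1b, chr9:119157094-119157343, minus strand: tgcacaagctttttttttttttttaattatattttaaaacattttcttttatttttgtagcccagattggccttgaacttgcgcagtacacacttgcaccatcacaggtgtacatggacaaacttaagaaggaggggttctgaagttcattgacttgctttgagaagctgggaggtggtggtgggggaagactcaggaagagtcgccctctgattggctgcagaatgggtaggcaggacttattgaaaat

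The table held such a stretch for 30 of the 36 genes. The DR1 repeat was found before the start site of Fabp1 alone among them, at -67 to -55, and in 0.338% of the 32851 stretches of the same length in the whole table. The single copy AGGTCA, which the repeat can contain, stood before 7 of the 30 genes (Acadm, Acadvl, Acot12, Acot4, Cpt1a, Echs1 and Fabp1) and in 14% of all stretches. The short element TGACG stood before 6 (Acadm, Acot2, Ehhadh, Etfdh, Fgf21 and Ppara) and in 17.8% of all stretches, and the full palindrome TGACGTCA stood before none of the 30 and in 1.55% of all. Fabp1 also had the TATA box TATAAA at -30 to -25, a motif in 12.4% of all stretches. These are matches of letters in a short window, and binding was not measured here.

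The summed level of the genes differed between culture conditions, and this sum was not tested. Summed over the 36 genes, FPKM was 761 and 787 in the DMSO libraries, 1056 and 1062 in 5C, 901 and 947 in 5C-G, 917 and 937 in 5C-C, 755 and 771 in 5C-E, 1236 and 1261 in 5C-F and 1027 in 5C-S. Cultures without forskolin stood highest, and cultures without ETC-1002 stood at the level of the solvent. By group mean, 17 of the 36 genes were highest in 5C-F and 8 in 5C, while 13 were lowest in DMSO, 12 in 5C-C and 7 in 5C-E. The highest single contribution came from Acaa2, a thiolase of the mitochondrial spiral, at 172 to 316 FPKM. The 12 enzymes of that spiral made up most of each sum, at 468 to 750 FPKM, and none of them was called in any comparison below.

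**Figure D1:**
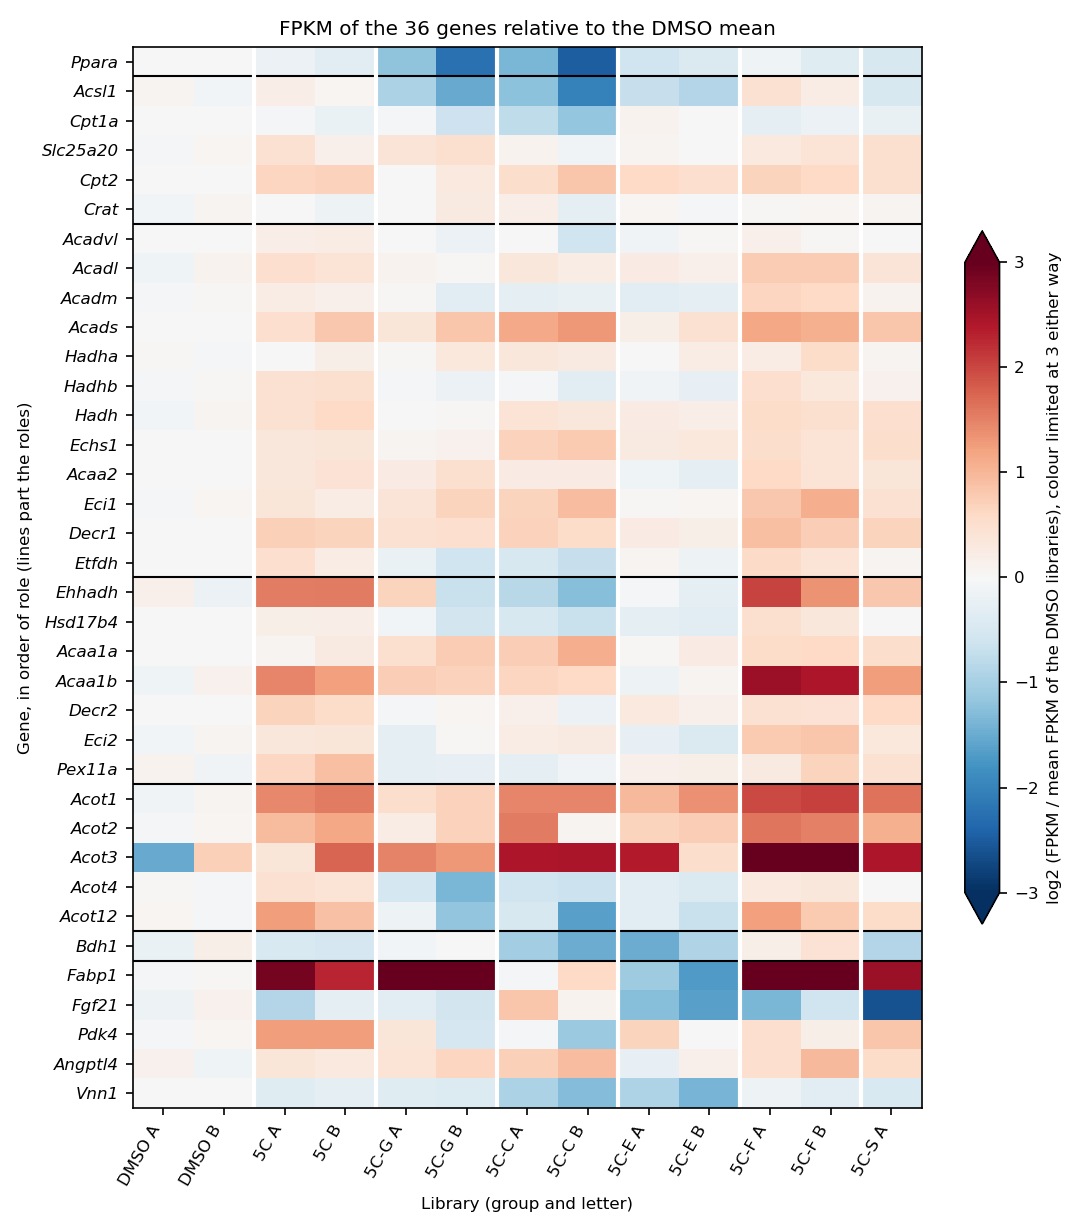
Each cell is the log2 ratio of a gene's FPKM in a library to the mean of the 2 DMSO libraries, for 36 genes (rows, in order of role) and 13 libraries (columns), with colours limited at 3 in either direction. Fabp1, Ehhadh, Acaa1b and Acot1 are red in the 5C and 5C-F columns. Fabp1 and Ehhadh turn pale or blue in 5C-C and 5C-E, while Acot1 stays red in 5C-C. Most of the mitochondrial spiral is paler, with Acads red in 5C-C and 5C-F.

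The cocktail raised 5 of the 36 genes and lowered none. A gene was called when its adjusted p was under 0.05 and its log2 fold change beyond 1, a rule that called 1.66% of all 19884 genes higher and 2.89% lower for 5C against DMSO. The called genes were the carrier Fabp1, the peroxisomal enzymes Ehhadh and Acaa1b, the thioesterase Acot1 and the pyruvate dehydrogenase kinase Pdk4. In all, 30 of the 36 log2 fold changes were above 0, with a median of 0.30 against 0.01 over all genes tested. The gene for the receptor itself was not among those that rose. In the same comparison 11 of 14 macrophage markers were called lower and, of 16 hepatocyte markers, 1 was called higher and 1 lower (median log2 fold change -0.02). Of 8 cholangiocyte markers 2 were called higher, and of 14 stellate cell and fibroblast markers 2 higher and 2 lower. The part of these markers was not tested.

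Fabp1, the cytosolic liver fatty acid binding protein (GRCm39 chr6:71176809-71182016, plus strand), was at 5.63 and 5.92 FPKM in DMSO and at 42.2 and 28.0 in 5C. Both 5C libraries lay well above both DMSO libraries, a 5.76-fold difference with a log2 fold change of 2.53 ± 0.30 (SE) and an adjusted p of 1.67e-05 by edgeR's quasi-likelihood test. Acot1, a cytosolic acyl-CoA thioesterase that frees fatty acids from coenzyme A (chr12:84056256-84065145, plus strand), went from 5.46 and 6.25 FPKM to 15.8 and 17.3 (log2 fold change 1.43 ± 0.19, adjusted p 7.81e-05). Its neighbour Acot2 shares 15.6% of its 100-base windows with Acot1, and how the counting divided such reads is not given in the sources used here.

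Ehhadh, the peroxisomal bifunctional enzyme of the middle steps of beta oxidation (chr16:21580036-21606563, minus strand), stood at 8.84 and 7.10 FPKM in DMSO and at 23.2 and 23.5 in 5C (log2 fold change 1.48 ± 0.31, adjusted p 0.00529). Acaa1b, a peroxisomal thiolase that catalyses the last step (chr9:118977091-118986161, minus strand), rose from 3.04 and 3.63 FPKM to 9.17 and 7.78 (1.27 ± 0.22, adjusted p 0.00120). The other thiolase copy, Acaa1a, shares 6.05% of its windows with Acaa1b and was not called (32.2 and 32.4 FPKM in DMSO, 34.2 and 38.9 in 5C). Pdk4, which shuts pyruvate out of the citric acid cycle when fat is burned (chr6:5483097-5496339, minus strand), rose from 8.74 and 9.44 FPKM to 21.7 and 21.6 (1.18 ± 0.30, adjusted p 0.0206). The groups did not overlap for any of these genes. The call of Pdk4 was lost when any 1 of the 4 libraries was left out and in limma on log2(FPKM + 1), with adjusted p over its alternatives from 5.76e-08 to 0.188, and that of Ehhadh was lost without library B of DMSO (range 1.04e-09 to 0.101).

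Genes of mitochondrial oxidation were not called for 5C against DMSO. All 12 enzymes of the mitochondrial spiral had a log2 fold change above 0, from 0.03 for Hadha to 0.61 for Decr1, the reductase for double bonds in unsaturated chains. None was called by edgeR, DESeq2 or limma, while 5 had an unadjusted p under 0.05 in edgeR. The share of all genes with an unadjusted p under 0.05 was not counted, so such counts, here and below, have no background to be read against. Decr1 had an adjusted p of 0.0304 with a change below the fold threshold (16.5 and 17.0 FPKM in DMSO, 27.4 and 26.5 in 5C). The same 12 signs were found with total counts, with DESeq2 size factors, with limma and with the offset for GC content and gene length. Cpt1a, the gate through which long-chain fatty acids enter mitochondria, was at 20.6 and 21.2 FPKM in DMSO and 20.3 and 18.2 in 5C (log2 fold change -0.19 ± 0.18, adjusted p 0.666). Ppara was at 2.08 FPKM in both DMSO libraries and at 1.84 and 1.66 in 5C (-0.32 ± 0.36, adjusted p 0.729). Bdh1, the last enzyme of ketone body synthesis, had 5.54 and 7.14 FPKM in DMSO against 4.65 and 4.47 in 5C (-0.55 ± 0.24, adjusted p 0.235), and Fgf21 had 2.90 and 3.51 against 1.75 and 2.67 (-0.61 ± 0.45, adjusted p 0.561).

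**Figure D2:**
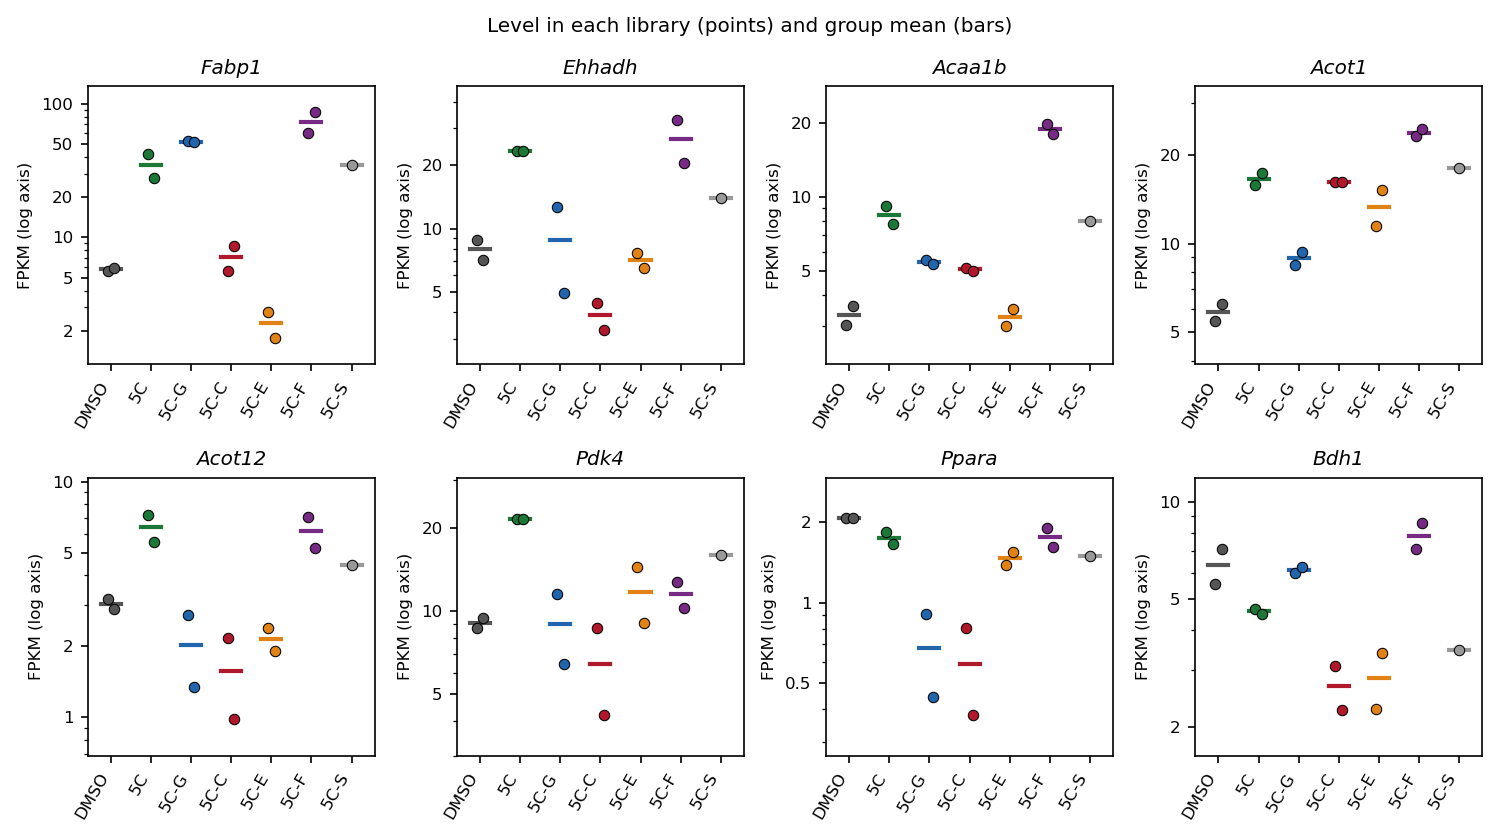
FPKM on a logarithmic axis for 8 genes, with a point for each library and a bar for the group mean, in 7 groups. Fabp1 lies at 1.77 to 2.78 FPKM in 5C-E and at 60.8 to 86.1 in 5C-F, Ehhadh and Acot12 fall in 5C-G, 5C-C and 5C-E, and Ppara is under 1 FPKM in the 5C-G and 5C-C libraries only.

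The 4 comparisons that follow set a group lacking 1 compound against the same pair of 5C libraries, which also enter the comparison with DMSO. A shared deviation of those libraries would move all of them, and values are therefore given for each comparison on its own.

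Without ETC-1002, 4 of the 36 genes were called lower and none higher, where the same rule called 1.31% of all genes lower and 0.654% higher. The called genes were Fabp1, Ehhadh, Acaa1b and the acetyl-CoA thioesterase Acot12. Fabp1 fell from 42.2 and 28.0 FPKM in 5C to 2.78 and 1.77 in 5C-E, which was a 16.0-fold difference (log2 fold change -4.00 ± 0.32, adjusted p 2.00e-06). These levels were also below the 5.63 and 5.92 FPKM of the DMSO libraries. Acaa1b went from 9.17 and 7.78 FPKM to 3.01 and 3.51 (-1.45 ± 0.22, adjusted p 0.00111), and its values overlapped those of DMSO.

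Ehhadh fell from 23.2 and 23.5 FPKM to 7.66 and 6.47 in 5C-E (-1.79 ± 0.31, adjusted p 0.00285). Its call was lost without library B of 5C-E and in limma (adjusted p 6.34e-13 to 0.0909 over the alternatives). Acot12 (chr13:91889396-91935688, plus strand) fell from 7.25 and 5.53 FPKM to 2.38 and 1.92 (-1.64 ± 0.34, adjusted p 0.0131), and its call was lost when any 1 of the 4 libraries was left out and in limma (adjusted p 6.07e-06 to 0.267).

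Most of the remaining genes also had values below those of 5C. The log2 fold change was below 0 for 33 of the 36, with a median of -0.46 against 0.01 over all genes tested, and 9 had an adjusted p under 0.05, as had 2.94% of all genes. All 12 enzymes of the mitochondrial spiral and all 7 peroxisomal genes were below 0. With total counts or limma 11 of the 12 were. Hadhb, a subunit of the mitochondrial trifunctional protein, was at 24.0 and 24.5 FPKM in 5C and 16.1 and 14.8 in 5C-E (adjusted p 0.0234), and Acaa2 was at 265 and 282 against 189 and 172 (adjusted p 0.0454). Both changes were below the fold threshold. Acsl1, which activates fatty acids to acyl-CoA, just missed it (7.88 and 7.13 FPKM against 4.30 and 3.73, log2 fold change -0.97, adjusted p 0.0249). Of the genes raised by 5C over DMSO, Acot1 and Pdk4 were not called in 5C-E. Acot1 was at 15.8 and 17.3 FPKM against 11.5 and 15.2 (-0.38 ± 0.19, adjusted p 0.360), and Pdk4 at 21.7 and 21.6 against 14.5 and 9.04 (-0.95 ± 0.29, adjusted p 0.104).

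Ppara stood at 1.84 and 1.66 FPKM in 5C and at 1.38 and 1.55 in 5C-E (-0.33 ± 0.36, adjusted p 0.748). Cpt1a stood at 20.3 and 18.2 against 22.5 and 20.7 (0.10 ± 0.18, adjusted p 0.877), the only gene of the 36 whose 5C-E libraries both lay above both 5C libraries. For 31 of the 36 both lay below and for 4 they overlapped, and the share of all genes without overlap was not counted. Bdh1 was at 4.65 and 4.47 FPKM against 2.27 and 3.38 (-0.76 ± 0.24, adjusted p 0.113), and Fgf21 at 1.75 and 2.67 against 1.33 and 1.03 (-0.98 ± 0.47, adjusted p 0.350). Among 16 hepatocyte markers, 8 were called lower in 5C-E and none higher, with a median log2 fold change of -1.29, and their part in these results was not tested. Of 14 macrophage markers none was called by edgeR, at a summed 832 to 998 FPKM, although 5 had an unadjusted p under 0.05. Of 14 stellate cell and fibroblast markers 1 was called higher and 3 lower, and of 9 endothelial markers tested 1 was called higher. Their part was not tested either.

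Without CID755673, the inhibitor of protein kinase D, there were 6 calls lower and 1 higher, against 10.5% lower and 9.65% higher over all genes. The count for the 36 genes is close to this background. Ehhadh fell most, from 23.2 and 23.5 FPKM to 4.45 and 3.31, a 5.40-fold difference (log2 fold change -2.43 ± 0.32, adjusted p 5.65e-05), and both 5C-C libraries were below both DMSO libraries. Fabp1 fell from 42.2 and 28.0 FPKM to 5.56 and 8.69 (-2.12 ± 0.29, adjusted p 7.04e-05), which spans the level of the solvent. Acot12 fell from 7.25 and 5.53 FPKM to 2.17 and 0.986 (-1.87 ± 0.35, adjusted p 0.000607).

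Acsl1 (chr8:46924063-46990145, plus strand) went from 7.88 and 7.13 FPKM to 2.94 and 1.68 in 5C-C (-1.54 ± 0.23, adjusted p 0.000131), and with the offset for GC content and gene length its log2 fold change was -0.997, just inside the fold threshold, at an adjusted p that stayed at or below 0.00297 in every alternative. Pdk4 went from 21.7 and 21.6 FPKM to 8.67 and 4.23 (-1.60 ± 0.30, adjusted p 0.000629). Ppara itself (chr15:85618656-85687067, plus strand) went from 1.84 and 1.66 FPKM to 0.801 and 0.377 (-1.43 ± 0.38, adjusted p 0.00685). That rested on 93 and 66 counts in 5C-C, and the call was lost in limma and without library B of 5C-C (adjusted p 0.00172 to 0.0877).

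The single call upward in 5C-C was Fgf21 (chr7:45263301-45266963, minus strand), the fasting hormone, at 1.75 and 2.67 FPKM in 5C and 5.70 and 3.46 in 5C-C (1.20 ± 0.46, adjusted p 0.0487). It was lost in 8 of 11 alternatives, with adjusted p between 0.0251 and 0.709, among them the fits without library A of 5C, library B of 5C or library A of 5C-C. Bdh1 was at 4.65 and 4.47 FPKM against 3.09 and 2.26 (-0.61 ± 0.24, adjusted p 0.0561), and with the offset for GC content and gene length it was called lower (-1.05, adjusted p 0.00185, against a range of 0.00185 to 0.298 over its alternatives). Cpt1a was at 20.3 and 18.2 FPKM against 12.4 and 9.35, and its adjusted p of 0.00827 came with a change inside the fold threshold (-0.66 ± 0.18).

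Beyond the called genes the direction in 5C-C was mixed. Of the 36 log2 fold changes 15 were above 0 and 21 below, with a median of -0.21 against 0.00 over all genes tested. The median was -0.081 without library B of 5C-C, -0.38 without library A of 5C-C, -0.38 with total counts, -0.35 in limma and -0.34 with the offset, and with total counts 10 changes were above 0. At a fold threshold of 0.5, 18 of the 36 were called, against 35.1% of all genes. The 12 enzymes of the mitochondrial spiral divided evenly, with 6 above 0 and 6 below, and between 4 and 8 were above 0 in the alternatives run on all 13 libraries. The short-chain dehydrogenase Acads (36.2 and 44.8 FPKM against 56.3 and 63.5, adjusted p 0.0114), the hydratase Echs1 (24.9 and 25.6 against 32.1 and 34.3, adjusted p 0.0111) and the isomerase Eci1 (19.7 and 17.8 against 24.3 and 29.1, adjusted p 0.0107) were above 5C. Etfdh, which passes electrons from the dehydrogenases to ubiquinone, was below it (15.2 and 12.5 against 7.70 and 6.67, adjusted p 0.00249). None of these passed the fold threshold. Of the genes raised by 5C over DMSO, Acot1 and Acaa1b were not called in 5C-C. Acot1 was at 15.8 and 17.3 FPKM against 16.2 and 16.2 (0.13 ± 0.19, adjusted p 0.633), and Acaa1b at 9.17 and 7.78 against 5.19 and 5.01 (-0.57 ± 0.22, adjusted p 0.0531). In 5C-C 7 of the 16 hepatocyte markers were called lower (median log2 fold change -0.88), and 7 of the 14 macrophage markers higher, at a summed 1249 to 1923 FPKM. Of the 14 stellate cell and fibroblast markers 1 was called higher and 5 lower (median log2 fold change -0.92), and 1 cholangiocyte and 1 endothelial marker were called higher. The part of these markers was not tested.

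In 5C-G, which lacks the ROCK inhibitor GSK429286A, 6 genes were called lower and none higher, against 5.64% and 7.47% of all genes. Acot12 fell from 7.25 and 5.53 FPKM in 5C to 2.71 and 1.34 (log2 fold change -1.55 ± 0.34, adjusted p 0.00347). Acot4, a peroxisomal thioesterase (chr12:84085081-84095375, plus strand), fell from 1.70 and 1.66 FPKM to 0.862 and 0.484 (-1.21 ± 0.28, adjusted p 0.00423). Ehhadh fell from 23.2 and 23.5 FPKM to 12.7 and 4.98 (-1.31 ± 0.31, adjusted p 0.00490). The 5C-G libraries lay apart for it, with A above and B below the DMSO libraries.

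Acsl1 fell from 7.88 and 7.13 FPKM to 3.56 and 2.44 in 5C-G (-1.20 ± 0.23, adjusted p 0.00119) and Pdk4 from 21.7 and 21.6 to 11.6 and 6.42 (-1.15 ± 0.30, adjusted p 0.00859). Ppara fell from 1.84 and 1.66 FPKM to 0.908 and 0.442 (-1.27 ± 0.37, adjusted p 0.0191). Library B of 5C-G was the lower of the pair for all 6 called genes. Without it 2 genes were called, 1 of them among the 6, and the calls of Acot12, Acot4, Ehhadh, Pdk4 and Ppara were lost. The call of Ppara was also lost without either 5C library and in limma (adjusted p 0.00463 to 0.203), and that of Acot4 in limma, so that limma kept 4 of the 6. With the offset for GC content and gene length the calls of Acsl1, Acot4 and Pdk4 were lost, and 3 of the 6 were kept.

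Fabp1 was not called in 5C-G, and both of its libraries lay above both 5C libraries. It was at 42.2 and 28.0 FPKM in 5C and at 52.6 and 51.7 in 5C-G (0.71 ± 0.27, adjusted p 0.0659). Bdh1 was at 4.65 and 4.47 FPKM against 6.01 and 6.27 (0.57 ± 0.24, adjusted p 0.0906), Cpt1a at 20.3 and 18.2 against 20.5 and 13.5 (-0.06 ± 0.18, adjusted p 0.855) and Fgf21 at 1.75 and 2.67 against 2.55 and 2.19 (0.23 ± 0.46, adjusted p 0.769). Over the 36 genes 13 changes were above 0 and 23 below (median -0.23, all genes tested -0.01), and the median was -0.36 with total counts and in limma. At a fold threshold of 0.5, 10 of the 36 were called, close to the 25.3% of all genes. Macrophage markers were called higher for 11 of 14, at a summed 5458 to 7654 FPKM, and hepatocyte markers lower for 10 of 16 and higher for 1 (median log2 fold change -1.07). Cholangiocyte markers were called lower for 4 of 8 (median -1.64), stellate cell and fibroblast markers higher for 4 and lower for 3 of 14, and endothelial markers lower for 2 of 9 tested. The part of these markers was not tested.

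Direct contrasts between the groups lacking a compound were added after the data had been seen, for Fabp1 and Ppara. Fabp1 was higher in 5C-G than in 5C-E (log2 fold change 4.71 ± 0.33, adjusted p 1.72e-07), higher in 5C-G than in 5C-C (2.82 ± 0.29, adjusted p 7.43e-06) and higher in 5C-C than in 5C-E (1.89 ± 0.32, adjusted p 0.000640), and these calls held in all 11 alternatives of each contrast. Ppara was lower in 5C-C than in 5C-E (-1.10 ± 0.38, adjusted p 0.0366), a call lost in 5 of 11 alternatives (adjusted p 0.00669 to 0.295), including without library B of 5C-C and without either 5C-E library. Between 5C-G and 5C-E the difference in Ppara missed the threshold (-0.94 ± 0.37, adjusted p 0.0876) but was called in 2 of 11 alternatives, with no filter and without library A of 5C-G (adjusted p 0.0260 to 0.507), and between 5C-G and 5C-C it was 0.16 ± 0.38 (adjusted p 0.859). For 5C-G against 5C-E the rule called 5.19% of all genes higher and 4.12% lower, for 5C-G against 5C-C 4.14% and 3.21%, and for 5C-C against 5C-E 6.33% and 7.34%.

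Without forskolin few of the 36 genes were called, too few to read a direction from the calls. For 5C-F against 5C, 2 of the 36 genes were called higher and none lower, with 2.69% of all genes called higher and 2.15% lower. Acaa1b rose from 9.17 and 7.78 FPKM to 19.7 and 18.0 (log2 fold change 1.26 ± 0.22, adjusted p 0.00236), and its call was lost without library B of 5C (adjusted p 5.12e-07 to 0.0613). Fabp1 rose from 42.2 and 28.0 FPKM to 60.8 and 86.1 (1.16 ± 0.27, adjusted p 0.0142), and its call was lost without library B of 5C and without library B of 5C-F (adjusted p 0.000285 to 0.180). Both genes had also risen in 5C over DMSO, and both had their highest group mean in the cultures without forskolin.

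Over the 36 genes 29 changes were above 0 in 5C-F, with a median of 0.24 against -0.01 over all genes tested, and 7 had an adjusted p under 0.05, as had 10.7% of all genes. The median was 0.13 without library A of 5C-F and in limma, and 0.14 with total counts, where 25 changes were above 0. Bdh1 was at 4.65 and 4.47 FPKM in 5C and 7.13 and 8.55 in 5C-F (0.88 ± 0.24, adjusted p 0.0273). The medium-chain dehydrogenase Acadm was at 41.2 and 38.8 against 55.0 and 53.0 (adjusted p 0.0388), Eci1 at 19.7 and 17.8 against 26.8 and 32.2 (adjusted p 0.0216) and Acot1 at 15.8 and 17.3 against 23.1 and 24.4 (adjusted p 0.0436), all inside the fold threshold. Pdk4 was at 21.7 and 21.6 FPKM against 12.8 and 10.2 (-0.81, adjusted p 0.0866), the lowest log2 fold change of the 36. Ppara was at 1.84 and 1.66 against 1.90 and 1.62 (0.11 ± 0.36, adjusted p 0.893), Cpt1a at 20.3 and 18.2 against 17.2 and 18.5 (-0.01 ± 0.18, adjusted p 0.992) and Fgf21 at 1.75 and 2.67 against 1.25 and 2.13 (-0.30 ± 0.46, adjusted p 0.729).

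Hepatocyte markers were called higher in 5C-F for 2 of 16 (median log2 fold change 0.38) and macrophage markers for 11 of 14, at a summed 1915 to 2261 FPKM. A single cholangiocyte marker was called higher and 1 stellate cell and fibroblast marker lower. Their part was not tested. The summed level of the 36 genes moved in the same direction as that of the hepatocyte markers from 5C to each of the 4 tested groups lacking a compound, and from DMSO to 5C the sum of the 36 genes was higher in both 5C libraries, at hepatocyte marker sums of 12114 to 13353 FPKM in DMSO and 12737 to 13084 in 5C. These sums were not tested.

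**Figure D3:**
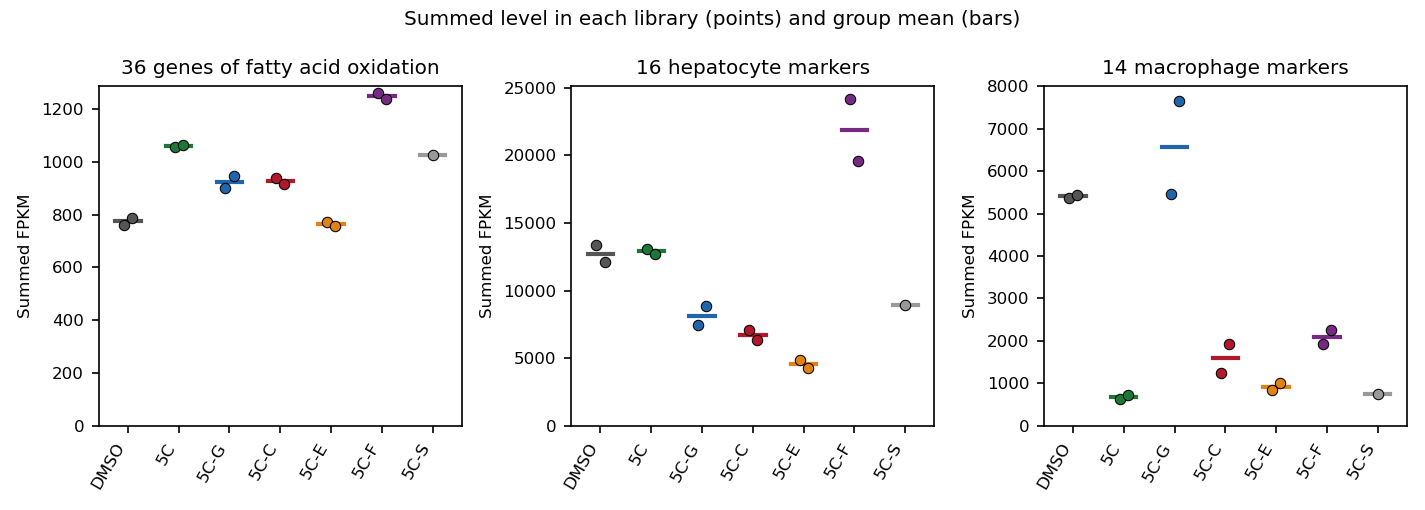
Summed FPKM of the 36 genes, of 16 hepatocyte markers and of 14 macrophage markers, with a point for each library and a bar for the group mean. The 36 genes and the hepatocyte markers are both lowest in 5C-E and highest in 5C-F, whereas the macrophage markers are highest in 5C-G and DMSO.

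Without Salidroside there was a single library, so no test was made. Against 5C, 1 of the 36 genes had a log2 ratio above 1 and 1 below -1, where 8.30% and 10.6% of all genes lay beyond these limits. Fgf21 was at 0.524 FPKM, from 17 counts, against 1.75 and 2.67 in 5C (log2 ratio -2.09). Acot3, a peroxisomal thioesterase listed at 0.0238 to 0.741 FPKM over all libraries, was at 0.366 against 0.0867 and 0.227 (log2 ratio 1.20, 43 counts in 5C-S). Fabp1 at 34.6 FPKM lay between the 5C libraries, and the median log2 ratio of the 36 genes was -0.09. Ehhadh at 13.98 FPKM, Acot12 at 4.44 and Pdk4 at 16.1 lay between the DMSO and 5C libraries.

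**Figure D4:**
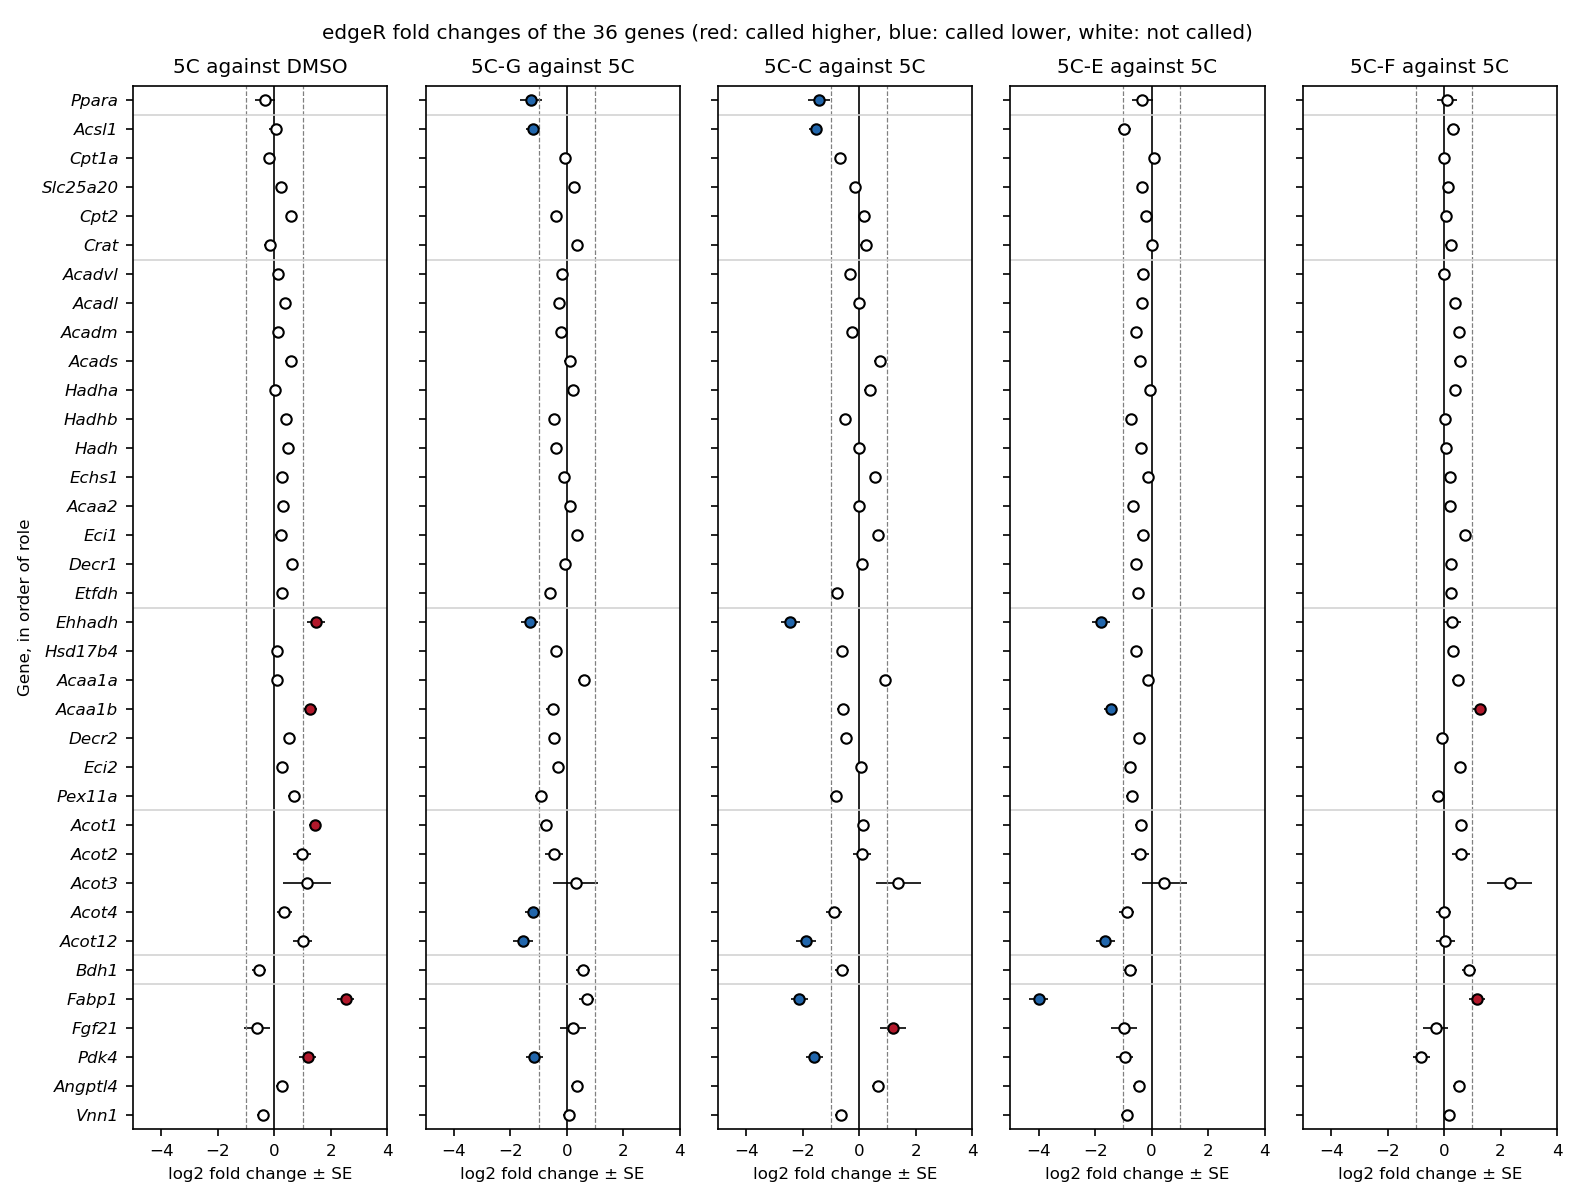
Log2 fold change with its standard error for the 36 genes in 5 comparisons, where red and blue points are called higher and lower, white points are not called and dashed lines mark the fold threshold of 1. Calls sit on the receptor, Acsl1, Ehhadh, Acaa1b, the thioesterases Acot1, Acot4 and Acot12, and Fabp1, Fgf21 and Pdk4, and none sits on the 12 enzymes of the mitochondrial spiral.

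Across the 5 tested comparisons 10 of the 36 genes were called at least once and 26 never, and of all genes tested 27.7% were called at least once, so the share of the 36 is close to this background. Ehhadh was called in 4 of them and was lower in each group lacking GSK429286A, CID755673 or ETC-1002, as was Acot12. The 26 genes never called differed by a median of 1.86-fold between their highest and lowest group means, from 1.17-fold for Crat, the carnitine acetyltransferase, to 10.9-fold for Acot3. Among them were Cpt2 (19.8 to 35.3 FPKM over all libraries), which hands fatty acids back to coenzyme A inside the mitochondrion, its partner carrier Slc25a20 (6.28 to 9.50 FPKM), the very-long-chain dehydrogenase Acadvl (16.0 to 28.2 FPKM) and Hadha (18.6 to 27.9 FPKM). Fabp1 had the widest range of the 36, with a 32.3-fold difference between its group means in 5C-F and 5C-E.

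Related genes outside the 36 gave the following. Slc16a6, a transporter of ketone bodies, was called lower in 5C than in DMSO (-1.80 ± 0.47, adjusted p 0.0254). Of 29 further peroxisomal genes, 1 was called lower for 5C against DMSO, 1 higher and 1 lower in 5C-G, 1 lower in 5C-C and none in 5C-E or 5C-F by edgeR, where 7 and 5 had an unadjusted p under 0.05. The peroxisomal transporter Abcd2 was called lower in 5C than in DMSO (-2.56 ± 0.40, adjusted p 0.000427) and higher in 5C-G than in 5C (1.69 ± 0.40, adjusted p 0.00488). The transporter Abcd3 was called lower in 5C-G than in 5C (-1.07 ± 0.21, adjusted p 0.00147).

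Among 33 further PPAR alpha target genes, of which 32 were tested, none was called for 5C against DMSO by edgeR, while 10 had an unadjusted p under 0.05. In 5C-E 4 were called lower: the acyl-CoA synthetases Slc27a5 (-1.89 ± 0.23, adjusted p 0.000123) and Slc27a2 (-1.61 ± 0.25, adjusted p 0.000943), the lipid droplet protein Plin5 (-1.77 ± 0.23, adjusted p 0.000168) and the apolipoprotein Apoa5 (-1.63 ± 0.27, adjusted p 0.00172). In 5C-G 4 of the 32 were called lower and 1 higher, in 5C-C 5 lower and 2 higher, and in 5C-F 2 higher and none lower. The shares of all genes called in each group are those given above. Slc27a2 and Slc27a5 were called lower in 5C-G and 5C-C as well. Fabp4, the fatty acid binding protein of fat cells and macrophages, was called higher in 5C-G, 5C-C and 5C-F, with log2 fold changes of 1.16, 1.15 and 1.12.

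Of 16 further receptors and partners of PPAR alpha, none was called for 5C against DMSO, in 5C-E or in 5C-F by edgeR, while 3, 9 and 4 had an unadjusted p under 0.05. In 5C-G 3 were called lower, and these were the coactivator Ppargc1a (-2.46 ± 0.51, adjusted p 0.00219) and the phosphatidate phosphatases Lpin1 (-1.56 ± 0.18, adjusted p 1.10e-05) and Lpin2 (-1.62 ± 0.26, adjusted p 0.000270). In 5C-C 7 were called lower and 1 higher, Lpin1 with the smallest adjusted p (-1.69 ± 0.18, adjusted p 8.72e-06). Of 16 further genes of mitochondrial oxidation, Etfb, a subunit of the electron transfer flavoprotein, was called higher in 5C-G (1.60 ± 0.31, adjusted p 0.00132), 5C-C (1.89 ± 0.31, adjusted p 0.000246) and 5C-F (1.02 ± 0.31, adjusted p 0.0429). The other 15 were called in none of the 5 comparisons.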

How the data were processed

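RNA-seq was analysed for 13 libraries in 7 groups taken from the sample labels. The authors extracted RNA with a column kit, sequenced 150-base paired reads on a NovaSeq and mapped them to GRCm39. The submitters' processing notes name featureCounts, Subread and DESeq2, with no version given. The deposited counts are whole read counts per gene, not normalized. The deposited FPKM are the authors' counts per length and total count (within 0.2% for 27140 of 27141 genes), and are used as levels. Handling of strand and shared reads is not given in the sources used here. Coordinates are from GENCODE on GRCm39, promoter stretches from RefSeq on GRCm38.p6.

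Counts were tested with edgeR 4.0.16 in R 4.3.3: TMM factors, filterByExpr by group (minimum count 10), glmQLFit and glmQLFTest, all 13 libraries in 1 fit of group means with 6 residual degrees of freedom, and Benjamini-Hochberg adjustment over 19884 genes. The common biological coefficient of variation was 0.261. A call needs an adjusted p under 0.05 and a log2 fold change beyond 1. The 5C-S library is described without a test. No 2 libraries of a group agreed within sampling noise. The chi-square per degree of freedom between them would be near 1 for sampling noise alone. It was 8.0 in DMSO, 14.1 in 5C, 28.9 in 5C-E, 62.9 in 5C-F, 75.7 in 5C-C and 86.6 in 5C-G. The fit shares its estimate of the spread over the groups, so p-values for 5C-G and 5C-C may be too small. The code was tested on simulated counts. Alternatives were total counts, DESeq2 1.42.0, other filters, only the 2 groups compared, limma 3.58.1 on log2(FPKM + 1), an offset for GC content and length, a fold threshold of 0.5, leaving out each library and, for the number of calls, a replicate block on the number in the column names.

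The genes and the lists of further genes and markers were chosen with earlier results of these data known. All 36 genes are accounted for by role. Statistics are given for called genes (at most 12 per comparison, by adjusted p) and always for Ppara, Cpt1a, Bdh1 and Fgf21, for genes of 5C-S beyond a log2 ratio of 1, and, outside the 36, for at most 5 called genes per comparison. Some genes of these lists are not reported here. Other values inside the fold threshold were named after they were seen. Depth is given in total counts, and precision is limited by 2 libraries per group.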

Additional observations from a re-analysis of the deposited data

How the results depend on the processing

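The direction of every call reported among the 36 genes held in all alternatives. With 5, 6, 7, 4 and 2 of the 36 genes called for 5C against DMSO and then for the groups without G, C, E and F, leaving out a library gave 3 to 4, 2 to 6, 6 to 7, 2 to 4 and 0 to 2 (lowest without library B of DMSO, library B of 5C-G, library B of 5C-E and library B of 5C; 1 without library B of 5C-F). A fold threshold of 0.5 gave 10 calls without G, 18 without C, 9 without E and 7 without F, where 25.3%, 35.1%, 2.94% and 10.7% of all genes passed, and limma gave 2 in 5C-E. The remaining alternatives stayed within 1.5 times the number reported, but not always with the same genes: with the offset for GC content and length 4 genes were called in 5C-G and 8 in 5C-C, of which 3 and 5 were among those reported. Log2 fold changes tracked gene GC content across all genes (Spearman -0.18, 0.33, 0.39, 0.31 and 0.24 in the order above, across genes, which are not replicates), and the cause was not tested.

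Several small changes that had not been called turned sign. Cpt1a was 0.12 in 5C-G, -0.013 in 5C-E and 0.16 in 5C-F with the offset, 0.0092 in 5C-F with DESeq2, and -0.28 to 0.13 in 5C-G and -0.061 to 0.052 in 5C-F when a library was left out. Fgf21 in 5C-G was -0.45 with the offset and -0.061 to 0.53 without a library, and in 5C-F -0.68 to 0.062 without a library. Ppara in 5C-F was -0.064 with the offset and -0.056 to 0.26 without a library, and between 5C-G and 5C-C -0.33 to 0.68 without a library. The cause was not tested.

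Scaling to total counts moved the median of all genes to -0.14 without G, -0.15 without C and -0.11 without F, and the calls of the 36 genes were then 7, 7 and 2. The columns of the count table carry a running number, 1 or 2, that the labels do not tie to a mouse, culture or day. Deviations from the group means correlated at -0.084 to 0.32 between libraries of the same number, over 0.1 in 6 of 15 pairs of groups, and the number was not taken to pair the libraries. Whether some groups share a batch was not tested. A replicate block on that number, added after the data were seen, gave 5, 6, 6, 5 and 2 calls among the 36 genes in the order above. With 2 libraries per group an SD or SE is itself imprecise, a lone library left in a group is assumed to vary like the others, and some levels under 1 FPKM rest on few counts (Ppara in 5C-G and 5C-C with 62 to 112, Acot3 in all groups with 3 to 107 and Fgf21 in 5C-S with 17).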
